A study of Homo sapiens with 4 samples.

Results

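The 10 genes described here encode the main protein parts of the desmosome, the spot-like junction that joins neighbouring epithelial cells and anchors their keratin filaments. They were taken by symbol from a deposited table of 60302 genes: the cadherins DSG2, DSG3, DSC2 and DSC3, the armadillo proteins JUP, PKP1, PKP2 and PKP3, and the plakins DSP and PPL. Each symbol had 1 row. The table holds 4 samples of HMLE, a line of human breast epithelial cells made immortal in culture, as polyA-selected, stranded RNA sequencing values. In 2 samples the cells stably carried a short hairpin RNA (shRNA) against HNRNPF, delivered by lentivirus (hnRNPF knockdown 1 and 2). In the other 2 they carried a non-specific shRNA delivered the same way (control 1 and 2). All 4 therefore share the line, its immortalization and a lentiviral shRNA, and the labels do not say whether samples of a group differ in hairpin, infection or only in culture. The p-values below then measure only the spread between these samples, which may be technical. The line has 1 origin, so nothing here compares donors.

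In a desmosome, desmogleins (DSG) and desmocollins (DSC) bind each other across the gap between cells. Inside the cell their tails bind plakoglobin (JUP) and plakophilins (PKP), and desmoplakin (DSP) ties this plaque to keratin. DSG2 and DSC2 are found in most tissues that form desmosomes, heart muscle included, whereas DSG3 and DSC3 belong to the basal layers of stratified epithelia and to basal cells of glands such as the breast.

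Values are FPKM (fragment numbers relative to the length of the gene and the size of the library), which can be compared between genes as levels per length. FPKM sums per sample lay between 391184 and 396135, and 12664 to 13390 genes reached 1 FPKM in a sample. Fragment totals are not listed, so no counting interval is given. HNRNPF, the targeted gene, was at 18.7 and 16.6 FPKM in the knockdown samples, against 154 and 153 FPKM in the controls, so every library matched its label. It was the 1 gene of the 13110 tested that passed an adjusted p of 0.05 in limma (log2 fold change -3.05, SE 0.0986, adjusted p = 0.0251). In limma it no longer passed when control 1 (adjusted p = 0.290) or control 2 (adjusted p = 0.103) was left out, without the intensity trend (adjusted p = 0.0995), with no filter on low values (adjusted p = 0.0988) and with the replicate number as a block (adjusted p = 0.164). The epithelial markers were KRT5, KRT14, KRT17 and TP63, which are basal, and EPCAM and CDH1, which are general. They summed to 8705 and 9830.0 FPKM in the knockdown samples, against 6759 and 10253 FPKM in the controls. Of these 6 markers, KRT17 and TP63 had both knockdown samples above both controls (17.5% of all tested genes). EPCAM had both below (17.1% of all tested genes). The part of these markers in the results for desmosomal genes was not tested. Of 9 markers of leukocytes, endothelium, fibroblasts and muscle, 2 were at 0 in all samples (CD3E and MYH6) and none exceeded 0.347 FPKM.

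Of the 10 genes, 7 are matched by the RefSeq promoter table (GRCh38.p14), with 9 entries, since JUP and DSC2 each have a pair of starts. The 250 bases before 4 of these starts are shown because these genes had the largest (DSC2, DSG3, DSP) and one of the smallest (DSG2) differences between the groups. They are written 5′ to 3′ on the gene's strand. Capitals mark GGGCGG, the GC box bound by SP1-type factors, and CAGGTG, an E-box of the kind bound by SNAI and ZEB repressors, on either strand. Neighbouring GC boxes in DSP share a base in 1 place, and no GC box overlaps an E-box in these 4.
DSP, chr6:7541421-7541670 on the plus strand: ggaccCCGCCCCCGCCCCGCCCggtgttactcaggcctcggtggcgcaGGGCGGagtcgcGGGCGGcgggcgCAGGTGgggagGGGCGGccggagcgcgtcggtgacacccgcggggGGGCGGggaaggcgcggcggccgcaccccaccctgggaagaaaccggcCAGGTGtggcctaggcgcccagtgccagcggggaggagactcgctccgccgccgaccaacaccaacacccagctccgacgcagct
DSC2, upstream start, chr18:31102422-31102671 on the minus strand: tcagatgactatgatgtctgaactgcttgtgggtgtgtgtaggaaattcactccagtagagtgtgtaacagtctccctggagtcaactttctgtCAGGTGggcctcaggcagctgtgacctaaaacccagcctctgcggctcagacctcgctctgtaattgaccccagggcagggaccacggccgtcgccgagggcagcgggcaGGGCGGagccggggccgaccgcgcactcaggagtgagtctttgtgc
DSG3, chr18:31447491-31447740 on the plus strand: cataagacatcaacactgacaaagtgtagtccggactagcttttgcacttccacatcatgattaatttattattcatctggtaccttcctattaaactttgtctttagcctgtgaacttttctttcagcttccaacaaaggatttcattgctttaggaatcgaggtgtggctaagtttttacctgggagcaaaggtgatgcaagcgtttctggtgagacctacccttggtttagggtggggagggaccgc
DSG2, chr18:31497927-31498176 on the plus strand: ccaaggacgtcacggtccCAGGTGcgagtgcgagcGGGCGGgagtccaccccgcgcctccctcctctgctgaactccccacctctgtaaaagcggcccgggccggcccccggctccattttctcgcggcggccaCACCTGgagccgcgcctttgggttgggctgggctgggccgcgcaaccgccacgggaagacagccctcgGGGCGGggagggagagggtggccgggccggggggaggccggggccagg

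These promoters differed in composition. DSP was 78.0% G or C with 33 CpG dinucleotides and DSG2 75.2% with 26, whereas DSG3 was 42.8% with 4, against medians of 58.0% and 11 over all 35116 promoter entries. GGGCGG was present in at least 1 entry of 5 of the 7 genes, 7 times in DSP and 2 times in DSG2, and in 42.6% of all entries. CAGGTG was present in at least 1 entry of 4 of the 7 (DSP, JUP, DSC2 and DSG2), and in 17.5% of all entries. In JUP and DSC2 it was at only 1 start of the pair. Counts by gene are thus not in the same unit as shares of entries. TATAAA and the grainyhead-type sequence AACCNGTT, both searched on either strand, were in none of the 9 entries and in 10.7% and 1.49% of all. DSG3 had neither marked sequence and DSP had both. The relation of these sequences to the expression values that follow was not tested.

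All 10 genes passed the filter of a mean of at least 1 FPKM, and none passed an adjusted p of 0.05 (limma on log2(FPKM + 1) over all 13110 genes), a threshold passed upward by 0% and downward by 0.00763% of the genes tested. Both knockdown samples lay above both controls for 7 of the 10 (DSP, JUP, PKP1, DSC2, DSG2, DSG3 and PPL) and below both for 0, against 17.5% and 17.1% of all tested genes. For 3 genes (DSP, PKP1 and DSC2) the unadjusted p was under 0.05 with a higher level in knockdown, and for 0 with a lower level, against 3.06% and 3.02% of all tested genes. For PKP1 and DSC2 it was above 0.05 with median-ratio scaling, with no trend and with no filter. The median log2 fold change was 0.29 over the 10 genes and 0.0012 over all tested genes, and 9 of 10 values were above 0 (50.2% of all tested genes). Summed over the 10 genes, FPKM was 764 and 808 in the knockdown samples, against 585 and 710.2 in the controls. With median-ratio scaling the groups of JUP and DSG2 overlapped, which left 5 genes with both knockdown samples above both controls (17.6% of all tested genes); with quantile normalization the count was 7 (17% of all tested genes). The count was 7 without control 1 (42.4% of all tested genes), 10 without control 2 (26.9%), 8 without knockdown 1 (25.8%) and 7 without knockdown 2 (40%). With a sample left out fewer samples must separate, so the count over the 10 genes cannot fall under 7. The shares over all genes were larger too, but unevenly, and why they differed between the samples left out was not tested. Without control 1 the median log2 fold change was 0.14, and without control 2 it was 0.41. In bulk RNA, fewer cells with a transcript and less of it per cell cannot be told apart.

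Control 1 was the lowest of the 4 samples for 9 of the 10 genes (17.8% of all tested genes), the exception being PPL, and knockdown 2 was the highest for 6 (15.5% of all tested genes). The samples numbered 2 also lay above those numbered 1 for 8 genes in knockdown and for 9 genes in the controls, so the spread within a group ran in 1 direction across most of these genes. The share of all tested genes with this order was not counted. Over all tested genes, knockdown 2 and control 2 were the lowest sample for 32.1% and 33.9%. Knockdown 1 and control 1 were the lowest for 16.1% and 17.8%. The part of the spread within a group in the differences between the groups was not tested.

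**Figure D1:**
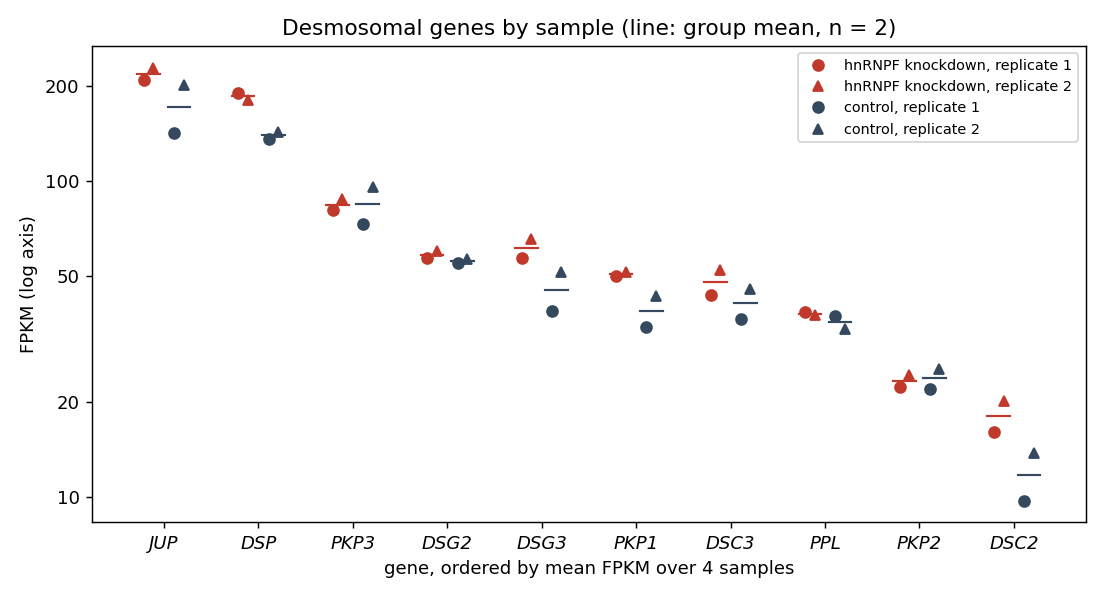
FPKM (log axis) of the 10 desmosomal genes, ordered by mean, in 2 hnRNPF knockdown samples (red, left of each pair) and 2 controls (dark, right), with circles for replicate 1, triangles for replicate 2 and lines for group means. The knockdown points lie wholly above the control points for 7 genes, and control 1 is the lowest point for 9.

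In level per length the genes ranged over more than an order of magnitude. JUP had the highest mean over the 4 samples (195 FPKM), followed by DSP (162 FPKM), with ranges that overlapped. PKP3 (84.4 FPKM) stood apart from both and from the genes under it. DSG2 (57.2 FPKM), DSG3 (53.2 FPKM), PKP1 (44.8 FPKM), DSC3 (44.5 FPKM) and PPL (36.9 FPKM) formed a run in which each range overlapped the next. PKP2 (23.6 FPKM) and DSC2 (14.9 FPKM) came last, each with a range of its own.

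DSP encodes desmoplakin, the plakin that every desmosome needs to hold keratin (ENSG00000096696.13, chromosome 6, 7541808 to 7586950 on the plus strand, GRCh37). It was at 190.1 and 181 FPKM in the knockdown samples, against 136 and 143 FPKM in the controls. Both knockdown samples were higher, and the gap between the groups was wider than the spread within either. The ratio of mean FPKM was 1.33 and the log2 fold change 0.41 (SE 0.0893, 95% interval 0.17 to 0.65; limma, adjusted p = 0.608). Among the 10 genes DSP had the smallest unadjusted p (0.00765 in limma), and its log2 fold change lay between 0.37 and 0.44 when each sample was left out in turn.

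PPL encodes periplakin, a smaller plakin of the cell periphery and the cornified envelope (ENSG00000118898.15, chromosome 16, 4932508 to 5010742 on the minus strand). It was at 38.6 and 37.6 FPKM in the knockdown samples, against 37.4 and 33.9 FPKM in the controls. The groups did not overlap, but knockdown 2 and control 1 were almost level. The log2 fold change was 0.093 (95% interval -0.17 to 0.36; limma, adjusted p = 0.992). It was 0.024 without control 2 and 0.16 without control 1. The test of the difference between DSP and PPL was not made.

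JUP encodes plakoglobin, which binds the tails of the desmosomal cadherins and also those of classical cadherins (ENSG00000173801.16, chromosome 17, 39910856 to 39943183 on the minus strand). It was at 208 and 228 FPKM in the knockdown samples, against 142 and 201 FPKM in the controls. The controls were far apart, and control 2 lay just under knockdown 1. The ratio of mean FPKM was 1.27 and the log2 fold change 0.37 (SE 0.192, 95% interval -0.14 to 0.88; limma, adjusted p = 0.890). Without control 1 the log2 fold change was 0.12, and without control 2 it was 0.62. The ratio of DSP to JUP in FPKM was 0.914 and 0.791 in the knockdown samples, against 0.961 and 0.710 in the controls, with groups that overlapped.

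The plakophilins bind desmoplakin and the cadherin tails and differ in where they are used. PKP1 is the plakophilin of stratified epithelia and strengthens adhesion (ENSG00000081277.11, chromosome 1, 201252580 to 201302121 on the plus strand). It was at 49.98 and 51.6 FPKM in the knockdown samples, against 34.4 and 43.3 FPKM in the controls. The knockdown samples were close together and above both controls, with a ratio of mean FPKM of 1.31 and a log2 fold change of 0.39 (SE 0.138, 95% interval 0.020 to 0.75; limma, adjusted p = 0.817). Without control 1 its log2 fold change was 0.22.

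PKP2, the plakophilin of simple epithelia and heart (ENSG00000057294.13, chromosome 12, 32943679 to 33049774 on the minus strand), was at 22.4 and 24.3 FPKM in the knockdown samples, against 22.0 and 25.5 FPKM in the controls. PKP3, found in nearly all epithelial desmosomes (ENSG00000184363.9, chromosome 11, 392614 to 404908 on the plus strand), was at 80.7 and 87.8 FPKM in the knockdown samples, against 73.4 and 95.6 FPKM in the controls. In both genes the knockdown samples fell between the controls. Their log2 fold changes were -0.022 (95% interval -0.34 to 0.30) and 0.0074 (95% interval -0.40 to 0.42), with adjusted p = 0.999 for each in limma, so changes of about the size seen for PKP1 lie within the interval of PKP3.

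Within the summed FPKM of the 3 plakophilins, PKP1 made up 32.7% and 31.5% in the knockdown samples, against 26.5% and 26.4% in the controls. The samples of a group were closer to each other than to those of the other group. The difference was 5.66 percentage points and lay between 5.09 and 6.22 when each sample was left out in turn. PKP3 made up 52.7% and 53.6% in the knockdown samples, against 56.5% and 58.1% in the controls. PKP2 made up 14.6% and 14.9% in the knockdown samples, against 16.98% and 15.5% in the controls. Shares within a sample sum to a fixed whole, so they are not independent of each other. The ratio of mean FPKM was 0.997 for PKP3 and 0.982 for PKP2. The differences in these shares were not tested.

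**Figure D2:**
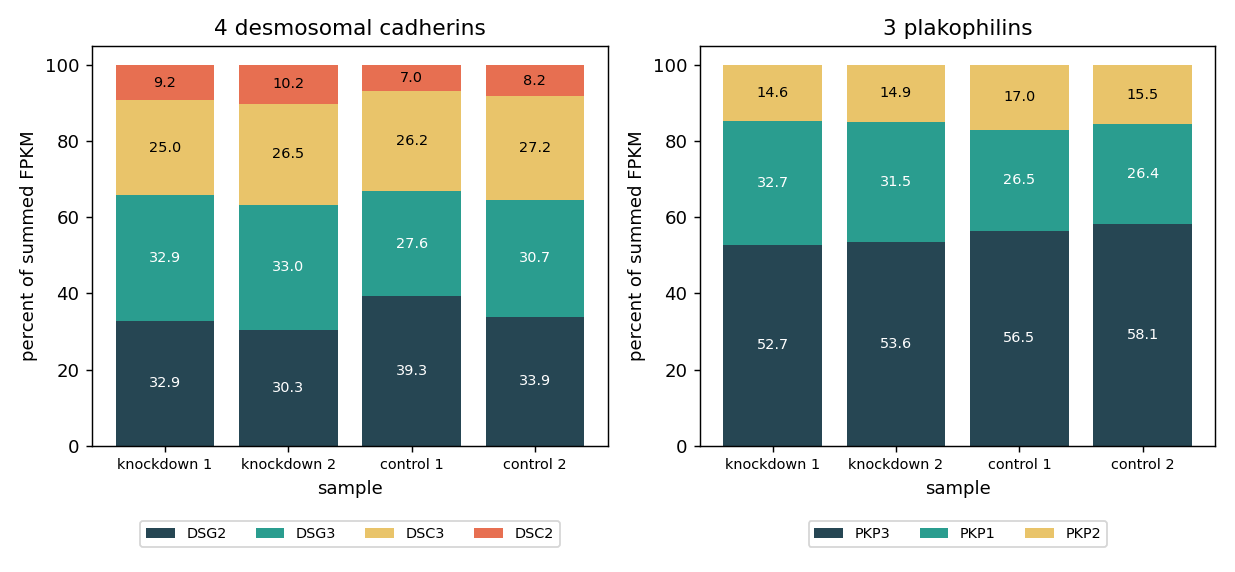
Percent of summed FPKM in each sample for the 4 desmosomal cadherins (left panel) and the 3 plakophilins (right panel), with the knockdown samples left of the controls. PKP1 takes 32.7% and 31.5% of the plakophilin sum in knockdown, against 26.5% and 26.4% in control.

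DSG3 encodes desmoglein 3, the basal desmoglein known as the target of antibodies in pemphigus vulgaris (ENSG00000134757.4, chromosome 18, 29027758 to 29058665 on the plus strand). It was at 57.2 and 65.3 FPKM in the knockdown samples, against 38.7 and 51.5 FPKM in the controls. Both knockdown samples were higher, and control 1 was the lowest by a wide margin. The ratio of mean FPKM was 1.36 and the log2 fold change 0.44 (SE 0.170, 95% interval -0.0067 to 0.90; limma, adjusted p = 0.824). Without control 1 the log2 fold change was 0.24.

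DSG2 encodes desmoglein 2, the desmoglein common to all desmosome-bearing tissues (ENSG00000046604.12, chromosome 18, 29078006 to 29128971 on the plus strand). It was at 57.1 and 59.9 FPKM in the knockdown samples, against 55.0 and 56.8 FPKM in the controls. All 4 samples lay within a narrow range, with knockdown 1 only just above control 2. The log2 fold change was 0.064 (95% interval -0.17 to 0.30; limma, adjusted p = 0.999). It was 0.030 without knockdown 2, 0.041 without control 1 and 0.098 without knockdown 1.

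DSC2 encodes desmocollin 2, the widespread desmocollin (ENSG00000134755.14, chromosome 18, 28638806 to 28682378 on the minus strand). It was at 16.01 and 20.1 FPKM in the knockdown samples, against 9.75 and 13.8 FPKM in the controls. Both knockdown samples were higher, though the step within each group was larger than the gap between control 2 and knockdown 1. Its ratio of mean FPKM, 1.53, and its log2 fold change, 0.59 (SE 0.213, 95% interval 0.023 to 1.15), were the largest of the 10 genes (limma, adjusted p = 0.817). Without control 1 the log2 fold change was 0.36.

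DSC3 encodes desmocollin 3, the desmocollin of basal cells (ENSG00000134762.16, chromosome 18, 28569974 to 28622781 on the minus strand). It was at 43.5 and 52.3 FPKM in the knockdown samples, against 36.7 and 45.7 FPKM in the controls. Knockdown 1 lay under control 2, so the groups overlapped. The log2 fold change was 0.22 (95% interval -0.21 to 0.64; limma, adjusted p = 0.927). It was 0.061 without control 1 and 0.085 without knockdown 2, against 0.37 without control 2 and 0.35 without knockdown 1. In both groups DSC3 was the more abundant of the desmocollins measured here. Of the desmogleins, DSG3 was at the level of DSG2 in knockdown 1 and above it in knockdown 2, whereas DSG2 was above DSG3 in both controls.

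**Figure D3:**
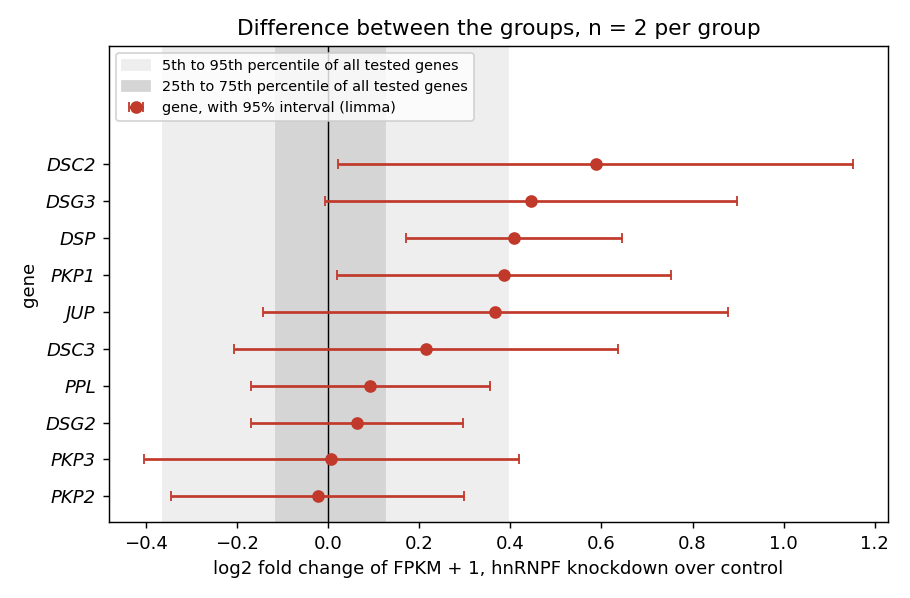
Log2 fold change of FPKM + 1, hnRNPF knockdown over control, for the 10 desmosomal genes with 95% limma intervals (n = 2 per group), over bands that hold the middle of all 13110 tested genes. DSC2 (0.59), DSG3 (0.44) and DSP (0.41) lie furthest right, and PKP2 (-0.022) and PKP3 (0.0074) lie at 0.

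Among the cadherins, shares also differed between the controls. DSG2 made up 32.9% and 30.3% of the 4-cadherin sum in the knockdown samples, against 39.3% and 33.9% in the controls. DSG3 made up 32.9% and 33.0% in the knockdown samples, against 27.6% and 30.7% in the controls. DSC2 made up 9.21% and 10.2% in the knockdown samples, against 6.95% and 8.23% in the controls. The shares of these 3 genes did not overlap between the groups, while DSC3 made up 25.01% and 26.5% in the knockdown samples, against 26.2% and 27.2% in the controls. These shares also sum to a fixed whole. The share of DSG2 was lower in knockdown although its ratio of mean FPKM was 1.05. The ratio of desmogleins to desmocollins was 1.92 and 1.73 in the knockdown samples, against 2.02 and 1.82 in the controls, with groups that overlapped.

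All 4 cadherin genes lie in a cluster of 7 desmosomal cadherin genes on chromosome 18, between 28569974 and 29128971 (GRCh37, 559.0 kb), in the order DSC3, DSC2, DSC1, DSG1, DSG4, DSG3 and DSG2. The desmocollins lie on the minus strand and the desmogleins on the plus strand. The outer genes were expressed and the middle ones nearly silent. DSC1, the desmocollin of upper epidermal layers, was at 0.159 and 0.219 FPKM in the knockdown samples, against 0.117 and 0.0791 FPKM in the controls. DSG1, the desmoglein of differentiated epidermis, was at 0.952 and 1.44 FPKM in the knockdown samples, against 0.210 and 0.751 FPKM in the controls. DSG4, a desmoglein of hair and upper epidermis, was at 0.328 and 0.381 FPKM in the knockdown samples, against 0.0669 and 0.197 FPKM in the controls. These 3 means lay under 1 FPKM, so the genes were not tested. Both knockdown samples lay above both controls in 3 of the 4 tested cluster genes, DSC3 being the exception, against 17.5% of all tested genes. They did so also in the 3 genes under the filter, to which that share does not apply. The other 9 annotated genes in the interval, DSG2-AS1 and DSCAS among them, stayed at or under 0.116 FPKM.

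**Figure D4:**
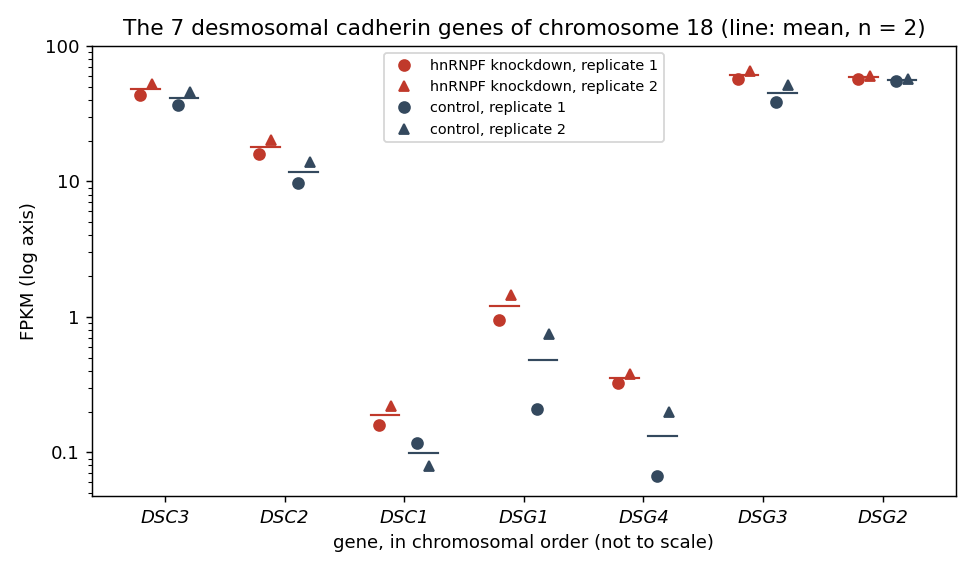
FPKM (log axis) of the 7 desmosomal cadherin genes of chromosome 18 in chromosomal order, by sample, knockdown (red) left of control (dark), with lines for group means (n = 2). DSC3, DSC2, DSG3 and DSG2 lie between 9.75 and 65.3 FPKM, and DSC1, DSG1 and DSG4 at or under 1.44 FPKM.

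The table's genes that overlap PKP2, DSC2, DSG2 or PPL were all at or under 0.418 FPKM, and no gene overlapped the other 6. Adding overlapping genes on the same strand moved DSC2 from a log2 fold change of 0.587 to 0.586. In the longest protein-coding transcript of each gene (GENCODE 29), the 10 genes had a median length of 5678 bases, against 3386 bases over 11424 tested genes, with PKP3 (2809 bases) under the median of all tested genes and JUP (3497 bases) close to it. Their G or C content ran between 38.9% in DSC2 and 66.7% in PKP3, with a median of 47.2% against 48.6%. Runs of at least 3 G, a feature of sequence that hnRNP F is known to bind, had a median density of 9.53 per kb against 12.5 per kb. A pattern of 4 such runs spaced by 1 to 7 bases, the usual sequence definition of a possible G-quadruplex, was in 3 of the 10 (PKP1, PKP3 and DSG2) and in 28.3% of the tested genes. The groups overlapped in PKP3 and were near in DSG2, while PKP1 differed more. The relation of this pattern to the differences between the groups was not tested. Introns and exon usage were not analysed here.

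Of the other desmosomal and associated genes, 4 of 7 were tested, with 2 above 0, 0 past the adjusted threshold in either direction and a median log2 fold change of 0.15. The 3 that were not tested are DSC1, DSG1 and DSG4, each higher in both knockdown samples at the low levels given above. EVPL, the envoplakin partner of periplakin in the cornified envelope, was at 4.24 and 2.98 FPKM in the knockdown samples, against 1.51 and 1.81 FPKM in the controls (log2 fold change 0.78, 95% interval 0.24 to 1.32; limma, adjusted p = 0.720). PERP, a membrane protein of desmosomes, was at 231 and 297 FPKM in the knockdown samples, against 173 and 258 FPKM in the controls, with overlapping groups (limma, adjusted p = 0.940).

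The other plakins had 2 of 4 values above 0, 0 past the threshold and a median of -0.062. These counts leave out the plakin EVPL, which was counted in the list before and was higher in both knockdown samples. PLEC, which encodes plectin of hemidesmosomes and the cytoskeleton, was at 92.2 and 84.5 FPKM in the knockdown samples, against 108 and 113 FPKM in the controls. Both knockdown samples were lower, the opposite side from DSP (log2 fold change -0.32, 95% interval -0.57 to -0.073; limma, adjusted p = 0.768). DST, another hemidesmosomal plakin, was at 89.9 and 78.9 FPKM in the knockdown samples, against 81.8 and 74.99 FPKM in the controls (limma, adjusted p = 0.992).

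Of the keratins, the filaments that desmoplakin holds, 8 of 9 were tested, 6 were above 0 and 0 passed in either direction, with a median of 0.19; KRT19 was under 1 FPKM. KRT17, a basal and stress keratin, was at 1786 and 2169.5 FPKM in the knockdown samples, against 975 and 1573 FPKM in the controls (limma, adjusted p = 0.833). KRT18, a simple epithelial keratin, was at 121 and 146 FPKM in the knockdown samples, against 172 and 177 FPKM in the controls, so both knockdown samples were lower (log2 fold change -0.39, 95% interval -0.71 to -0.068; limma, adjusted p = 0.782). Of the 8 tested keratins, 2, KRT17 among them, had both knockdown samples above both controls, and 1, KRT18, had both below. Over all tested genes these shares were 17.5% and 17.1%.

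Transcription factors with known roles at desmosomal or epithelial genes had 6 of 9 members tested, 4 above 0 and 0 past the threshold, with a median of 0.13. GRHL1, a grainyhead factor known in mouse to activate the desmoglein 1 gene, was at 3.41 and 2.75 FPKM in the knockdown samples, against 1.89 and 2.05 FPKM in the controls (limma, adjusted p = 0.817). TP63, the p63 factor of basal epithelial cells, was at 30.9 and 28.7 FPKM in the knockdown samples, against 19.5 and 26.5 FPKM in the controls (limma, adjusted p = 0.864). For both factors each knockdown sample lay above each control, as for 17.5% of all tested genes. GRHL2, GRHL3, KLF5 and SNAI2, the rest of the 6 tested, overlapped between the groups, with GRHL2 and KLF5 below 0. The part of these factors in the results for desmosomal genes was not tested. The repressors SNAI1 and ZEB1 stayed under 1 FPKM, as did ZNF750 on average.

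Proteases, kinases and other enzymes that act on desmosomes had 4 of 9 values above 0, 0 past the threshold and a median of -0.061. Both knockdown samples lay above both controls for 1 of the 9 and below both for 3, ADAM10 among them. Over all tested genes these shares were 17.5% and 17.1%. The sheddase ADAM10 was at 14.1 and 13.9 FPKM in the knockdown samples, against 16.8 and 14.8 FPKM in the controls (limma, adjusted p = 0.932). SRC, a tyrosine kinase, was at 20.9 and 16.1 FPKM in the knockdown samples, against 15.95 and 16.2 FPKM in the controls (limma, adjusted p = 0.953). RNA-binding partners of plakophilins had 2 of 4 values above 0, 0 past the threshold and a median of -0.046. PABPC1, the poly(A)-binding protein, was at 556 and 433 FPKM in the knockdown samples, against 513 and 699 FPKM in the controls, and EIF4A1, a translation helicase, at 189 and 257 FPKM, against 218 and 191 FPKM. Both overlapped between the groups (limma, adjusted p = 0.927 and 0.999).

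**Figure D5:**
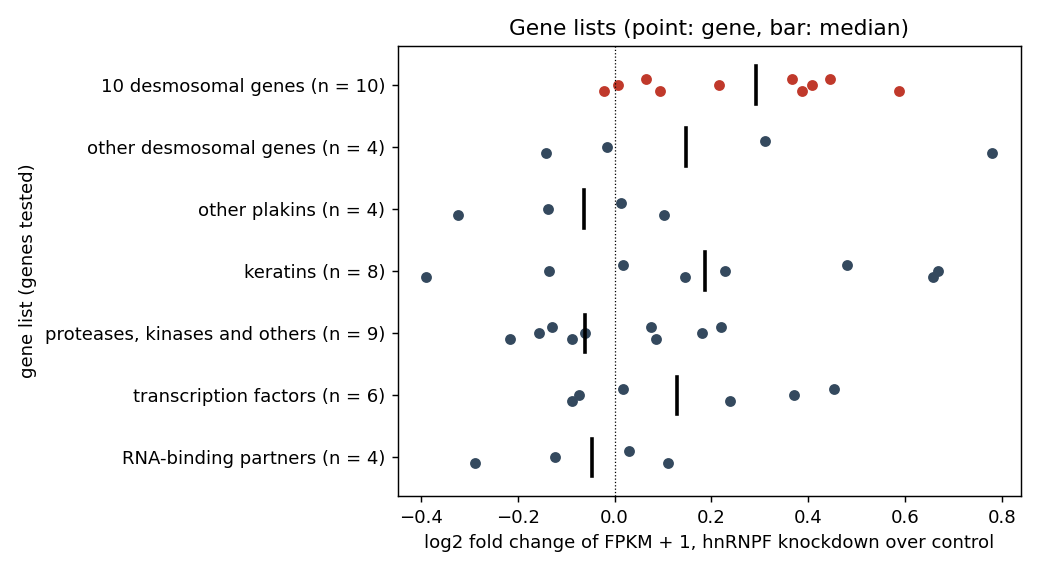
Log2 fold change of FPKM + 1, hnRNPF knockdown over control, for every tested gene (point) of the 10 desmosomal genes and of the other lists, with list medians (bar). The 10 desmosomal genes have a median of 0.29 with 9 of 10 points above 0. The other plakins, without EVPL, which is among the other desmosomal genes, have a median of -0.062.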

How the data were processed

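The deposited table gives FPKM, computed by the authors, per gene and sample, 1 column per replicate per the file headers. Per the labels' protocols, RNA was taken up in Trizol, selected for polyA and sequenced as stranded TruSeq read pairs. STAR 2.5.3a and Cuffdiff 2.2.1, with the build GRCh37, are listed in the submitters' processing notes, which give them no role. The annotation release is not given in the sources used here. The division of fragments between overlapping genes can change these values.

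The 13110 of 60302 genes whose mean reached 1 FPKM were compared as log2(FPKM + 1) with limma 3.58.1 in R 4.3.3, by empirical Bayes (intensity trend, no covariate) on all 4 samples, with two-sided tests and Benjamini-Hochberg adjustment over all tested genes at 0.05. For low genes this scale gives smaller changes than the FPKM ratio. Errors called SE are standard errors of the log2 fold change, with n = 2 per group. The fit was tested on simulated data. Low FPKM of single-exon genes were whole multiples of a common step within 0.02 for only 24.0% to 39.6% of values, so fragment counts could not be rebuilt and count tests were left out.

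The members and the other gene lists were chosen with earlier results of these data known. Named genes are HNRNPF, the 10 members and, from each other list, members past the threshold, or else the 2 with the smallest p and those under 1 FPKM; 1 gene of the transcription factor list is not reported here. The alternatives were pseudocounts of 0.1 and 0.5, no filter, a filter at 5 FPKM, quantile and median-ratio scaling, no trend, robust estimation, a replicate block, sums with overlapping genes and leaving out each sample. Promoters are RefSeq's and GENCODE 29 gave transcripts; both are on another build and gave no coordinates for expression. Python 3.11.15, pandas 2.3.3 and matplotlib 3.10.9 were used for sequences and figures.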

Additional observations from a re-analysis of the deposited data

How the results depend on the processing

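Over the alternatives, the adjusted p of the 10 genes in limma never fell under 0.275. Under the alternatives that can change its value, the log2 fold change kept its direction in 78 of 83 cases. The filters, no trend, robust estimation and the replicate block leave a fold change as it is by construction. For the 7 genes with both knockdown samples above both controls, leaving out a sample or changing the pseudocount cannot reverse the direction. The 78 therefore include cases fixed in advance and overstate the stability. The reversals were in PKP2 and PKP3, both near 0. PKP2 was 0.014 with quantile normalization and between -0.12 and 0.078 when each sample was left out, and PKP3 between -0.18 and 0.20. The cause was not tested. The median over the 10 genes was between 0.14 and 0.41 when each sample was left out and between 0.29 and 0.31 under the other settings. The count of genes with every knockdown sample above every control was followed under settings chosen after seeing the data and lay between 5 and 10.

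Over all genes, 0 passed with no filter, with no trend or with the replicate block, and between 0 and 2 when each sample was left out (HNRNPF and, without knockdown 2, BLOC1S5-TXNDC5). Same-numbered samples correlated in their deviations (r = 0.39 across tested genes, which are not independent replicates), but the labels do not say what a number marks. With the replicate block the unadjusted p was 0.00423 for DSC2, 0.0108 for DSP, 0.0126 for DSG3, 0.0271 for PKP1 and 0.0482 for JUP, with adjusted p between 0.275 and 0.364 in limma and unchanged log2 fold changes. Other settings raised it. In limma with median-ratio scaling it was 0.0332 for DSP, 0.0960 for PKP1 and 0.0722 for DSC2. With no trend these were 0.0204, 0.0638 and 0.0512, and with no filter 0.00601, 0.0825 and 0.102. With quantile normalization DSC2 was at 0.0670 and the others stayed under 0.05. With the other pseudocounts, the filter at 5 FPKM or robust estimation, DSP, PKP1 and DSC2 stayed under 0.05. The difference in the ratio of DSP to JUP was 0.0169 and lay between -0.109 and 0.142 when each sample was left out, and that in the ratio of desmogleins to desmocollins was -0.0938 and lay between -0.192 and 0.00416. The share differences of the cadherins and plakophilins kept their direction without any 1 sample. Except for DSC3, the shares did not overlap between the groups, so this was fixed in advance. Each symbol had 1 row, so summing rows per symbol was not run. With 2 samples per group and no fragment totals, the intervals above set what could be detected.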
